A study of Mus musculus with 24 samples.

Results

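The genes of the 2 receptors (Pdgfra, Pdgfrb) and 4 ligand chains (Pdgfa, Pdgfb, Pdgfc, Pdgfd) of the platelet-derived growth factor (PDGF) system were followed in 4T1, a mouse mammary carcinoma cell line, during long culture with lactic acid. They are 6 of the 19938 genes measured, and were taken by symbol. Where a gene has several probe sets, 1 was to be selected on its mean signal over the 24 arrays, but each gene had 1 probe set (10522503, 10456046, 10535043, 10430660, 10492689 and 10583021, in the order above), so the mean decided nothing. Control cells had medium with 3 mM glucose but without lactic acid. Treated cells were kept in 3 mM glucose with 20 mM lactic acid and collected on days 1, 3, 4, 5, 7, 9 and 11, with 3 arrays in each of the 8 groups. The study sought genes that act over time as lactic acid extends the life of glucose-starved cells. No time in culture is given for the control, so each comparison with it holds both lactic acid and time, and these cannot be told apart. All samples are 1 cell line in culture. In such bulk RNA, fewer cells of a type and less RNA per cell cannot be told apart.

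PDGFs are secreted dimers that bind a pair of receptor tyrosine kinases. The alpha receptor binds A, B and C chains and the beta receptor binds B and D chains, and bound receptors dimerise, phosphorylate each other and switch on RAS-MAP kinase, PI3-kinase and phospholipase C signalling. A and B chains are cut inside the cell, whereas C and D chains leave it in a latent form that plasminogen activators open. In mammary tumours carcinoma cells are known mainly as a source of the ligands, and fibroblasts and pericytes as the cells that carry the receptors. Receptor expression in carcinoma cells has been linked with a mesenchymal state.

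Upstream sequence is shown for Pdgfra and Pdgfa, the changed genes for which a window could be printed, to set 1 receptor start beside 1 ligand start. Both windows are the 250 bases before a RefSeq transcript start (GRCm38.p6), at chr5:75152001-75152250 on the plus strand and chr5:138994945-138995194 on the minus strand. Both lie inside the recorded span of their gene (75151322 to 75198206 and 138976014 to 139000792). Neither window therefore precedes the outermost start of its gene. Capitals mark matches to the motifs searched.
Pdgfra: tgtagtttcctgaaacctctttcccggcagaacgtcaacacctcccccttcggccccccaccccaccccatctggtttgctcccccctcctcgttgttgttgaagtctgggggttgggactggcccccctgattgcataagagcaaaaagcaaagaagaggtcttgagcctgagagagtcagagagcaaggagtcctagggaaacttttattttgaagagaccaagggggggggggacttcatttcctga
Pdgfa: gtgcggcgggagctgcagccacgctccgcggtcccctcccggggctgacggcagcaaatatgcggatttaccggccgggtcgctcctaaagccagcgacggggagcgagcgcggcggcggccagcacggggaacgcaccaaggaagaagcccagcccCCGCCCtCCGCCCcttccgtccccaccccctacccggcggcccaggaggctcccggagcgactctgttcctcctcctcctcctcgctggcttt
G and C made up 54.4% of the Pdgfra window and 72.4% of the Pdgfa window, against a median of 52.4% over 32851 such windows. A GC content at least as high as that of Pdgfa was found in 6.45% of windows. Both strands were searched for the GC box (GGGCGG, in 32.7% of windows), the CCAAT box (CCAAT, 33.8%), the TATA box (TATAAA, 12.4%), the AP-1 site (TGANTCA, 6.75%), an ATF4 composite site (TGATGNAAN, 3.44%) and the hypoxia response core (ACGTG, 16.6%). These motifs can overlap each other. The Pdgfa window held 2 GC boxes, beginning 93 and 86 bases before the start, and none of the other motifs. Another RefSeq start of Pdgfa has its window at chr5:138994282-138994531, not printed here. It held 1 GC box, beginning 60 bases before that start, and none of the other motifs. In the Pdgfra window none of these letters was found, which says nothing about the factors that bind there. RefSeq windows were matched for 4 of the 6 genes.

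Values are log2 signals of the authors' RMA normalisation, so 1 unit is a doubling, and a gene was called changed at an adjusted p below 0.05 in a limma fit over all 19938 genes. Signals of different probe sets cannot be ordered finely, so no gene's level is set against another's, and percentiles among genes serve only as a rough guide to how low a signal is. Array medians lay between 5.01 and 5.26 over genes. Day 1 replicate 1 stood apart, with an SD across genes of 1.94 and a median correlation of 0.963 with the other day 1 arrays. Day 9 replicates 2 and 3, set aside with it from an earlier analysis of these data, had the next highest medians over all probe sets (4.70 and 4.64, against 4.62 for day 3 replicate 2). Their medians over genes were within the range of the others (5.07 and 5.04), and by correlation within the group day 9 replicate 1 was the least alike (0.989, against 0.992 for both others). Where a call below changed without these 3 arrays, the value without them is given. The labels call the replicates biological without naming separate cultures, so the spread behind each p-value is that between these arrays, which may be technical.

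Both receptor genes rose between day 1 and day 3 and stayed above control to day 11, and all 3 arrays of every day from day 3 lay above all 3 control arrays. Pdgfra, the alpha receptor gene, read 7.30, 7.19 and 7.34 in control and 7.42, 7.28 and 7.18 on day 1, which overlap. Day 3 gave 9.69, 9.68 and 9.71, and day 4, its highest group, 10.22, 10.23 and 10.15. The jump from day 1 to day 3 was 2.40 (SE 0.15, 5.27-fold, adjusted p = 2.94e-11), and day 4 lay 2.92 above control (SE 0.15, 7.59-fold, adjusted p = 7.07e-13). Its group means spanned 2.92, a span reached by 0.792% of all genes.

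After day 4 Pdgfra stood lower again. The arrays read 9.78, 9.80 and 9.72 on day 5 and 9.61, 9.66 and 9.08 on day 7. Day 9 gave 9.27, 8.70 and 8.67, and day 11 gave 9.09, 8.97 and 9.13. Every array of days 9 and 11 lay below every array of days 3, 4 and 5, and above every control array. The difference from control was 1.60 on day 9 (SE 0.15, 3.04-fold, adjusted p = 8.30e-09) and 1.79 on day 11 (SE 0.15, 3.45-fold, adjusted p = 1.43e-09). Without the 3 arrays set aside the day 9 difference was 1.995 (adjusted p = 1.30e-08). In order of mean level the groups ran day 4, 5, 3, 7, 11, 9, 1 and control, and arrays of neighbours overlapped between days 7 and 11, days 11 and 9, and day 1 and control.

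Pdgfrb, the beta receptor gene and a standard pericyte marker, followed with a later peak. It read 5.55, 5.17 and 5.17 in control and 5.05, 4.83 and 4.87 on day 1, where every array lay below control although the difference of -0.38 (SE 0.14) did not pass (adjusted p = 0.130). Day 3 gave 6.18, 6.41 and 6.45, and day 4 gave 6.89, 6.71 and 6.55. The highest group was day 5, with 6.98, 7.18 and 7.22. From day 1 to day 3 it rose by 1.43 (SE 0.14, 2.69-fold, adjusted p = 6.26e-08), and on day 5 it lay 1.83 above control (SE 0.14, 3.55-fold, adjusted p = 1.70e-09).

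Later arrays of Pdgfrb read 7.08, 7.07 and 6.86 for day 7, 6.92, 6.52 and 6.37 for day 9, and 6.69, 6.48 and 6.69 for day 11. All lay above every control array, by 1.71, 1.30 and 1.32 on average (SE 0.14 each, adjusted p = 2.67e-09, 1.84e-07 and 1.56e-07). Neighbours overlapped all along its order from day 5 through days 7, 4, 11 and 9 to day 3, and the gap of 1.05 from day 3 to control was the widest. The span of its group means, 2.21 from day 1 to day 5, was reached by 1.96% of all genes.

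**Figure D1:**
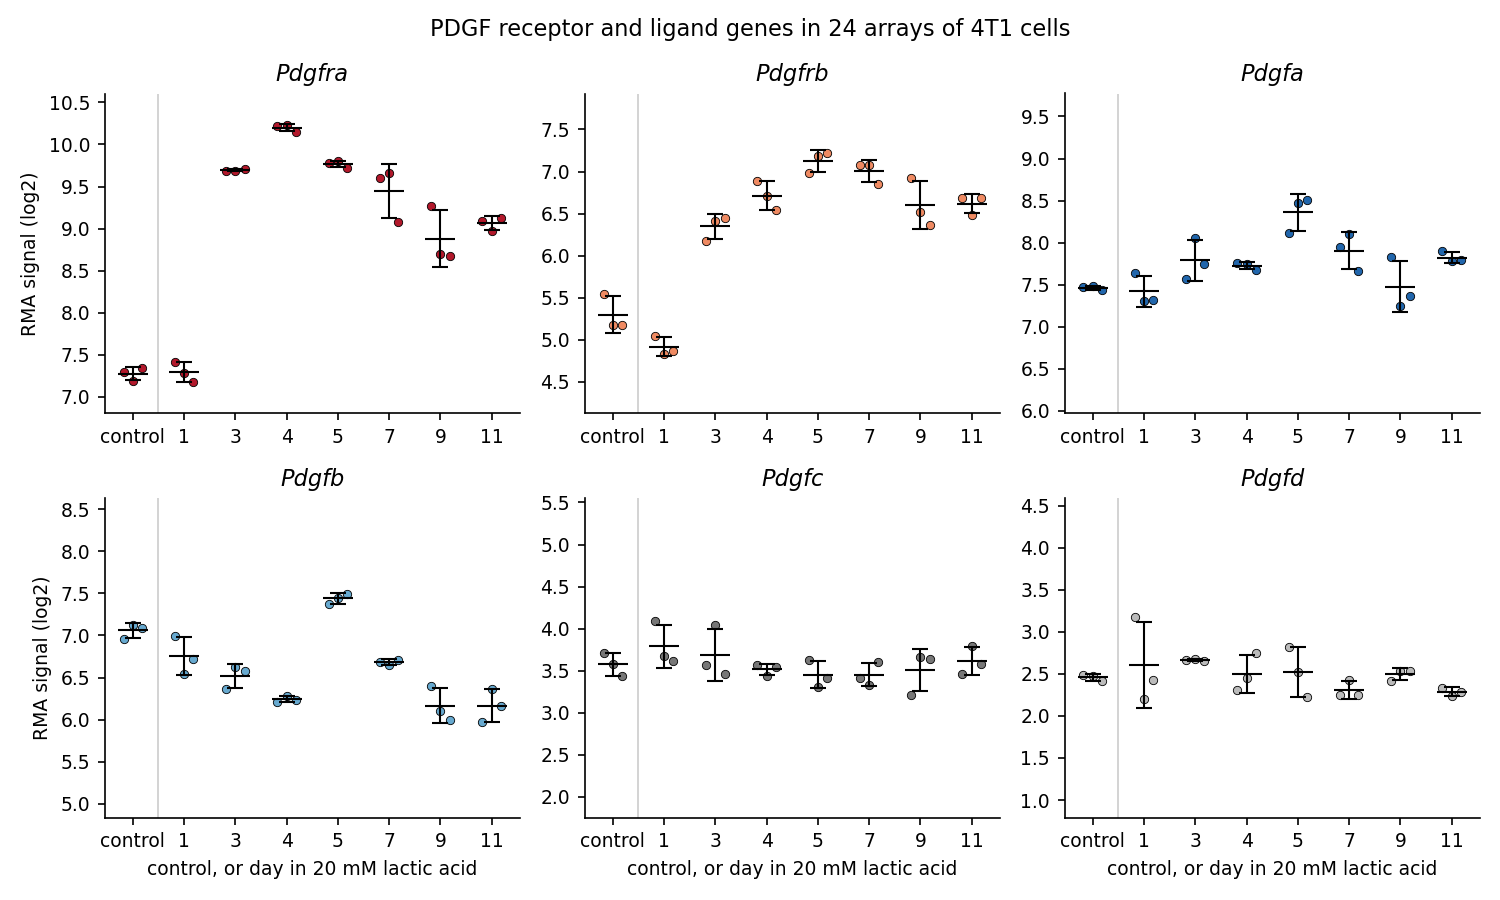
RMA signal (log2) of the 6 genes in each of 24 arrays, by control or day in 20 mM lactic acid. Points are arrays, horizontal lines are means and bars are SDs of 3 arrays, and all panels cover the same number of log2 units. Pdgfra and Pdgfrb step up between days 1 and 3, and Pdgfb is highest on day 5 (7.38 to 7.50). Pdgfc and Pdgfd read low on every array and passed no comparison in the reported fit.

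The ligand genes differed among themselves. Pdgfb fell below control on every later day except day 5, and Pdgfa peaked on day 5. Pdgfc and Pdgfd passed no test in the reported fit. Pdgfb encodes the B chain, which both receptors bind. It read 6.96, 7.13 and 7.09 in control and 6.99, 6.54 and 6.72 on day 1, where the arrays overlap (difference -0.31, SE 0.13, adjusted p = 0.170). Day 3 gave 6.36, 6.63 and 6.57, and day 4 gave 6.21, 6.28 and 6.24. All of these lay below control, with falls of 0.54 (adjusted p = 0.00256) and of 0.82 (SE 0.13, 1.76-fold lower, adjusted p = 2.45e-05).

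Day 5 stood out for Pdgfb, with 7.38, 7.44 and 7.50, above every other array of the series. It rose by 1.20 from day 4 (SE 0.13, 2.29-fold, adjusted p = 7.55e-06) and fell by 0.76 from day 5 to day 7 (SE 0.13, 1.69-fold lower, adjusted p = 7.64e-04). Both steps passed under all 15 alternatives. Against control the day 5 difference was 0.38 (SE 0.13, adjusted p = 0.0296), which was lost after cyclic loess (0.26, adjusted p = 0.137) and with arrays centred on their medians (0.32, adjusted p = 0.0656). It was also lost without control replicate 1 (adjusted p = 0.112) or 3 (adjusted p = 0.0578) and without day 5 replicate 2 (adjusted p = 0.0640) or 3 (adjusted p = 0.0900).

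By day 7 Pdgfb read 6.69, 6.65 and 6.71, again below control, by 0.38 (SE 0.13, adjusted p = 0.0333). That call ended without any 1 of 5 arrays, control replicates 2 or 3 (adjusted p = 0.112 and 0.0922) and day 7 replicates 1, 2 or 3 (adjusted p = 0.0792, 0.0945 and 0.0637). Day 9 gave 6.39, 6.11 and 5.99, and day 11 gave 5.97, 6.36 and 6.16. The falls from control were 0.89 on day 9 (SE 0.13, 1.86-fold lower, adjusted p = 7.93e-06) and 0.90 on day 11 (SE 0.13, 1.86-fold lower, adjusted p = 7.61e-06). In the order of its means, control and days 1 and 7 overlapped as neighbours, as did days 4, 9 and 11.

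Pdgfa, the A chain gene, whose product binds the alpha receptor, had narrower control values of 7.47, 7.49 and 7.44. The arrays read 7.64, 7.31 and 7.32 for day 1, 7.57, 8.05 and 7.75 for day 3, and 7.76, 7.75 and 7.67 for day 4. None of these 3 days passed against control (-0.04, 0.32 and 0.26, SE 0.155 each, adjusted p = 0.895, 0.141 and 0.255), though the arrays of days 3 and 4 all lay above control. Day 3 passed with array weights and without the 3 arrays set aside (adjusted p = 0.0260 and 0.0490), and day 4 with array weights and with only the arrays compared (adjusted p = 0.0405 and 0.0311). Array weights called more of all genes as well, 8435 on day 3 and 8753 on day 4, against 5239 and 5369 in the reported fit. Fitting only the arrays compared called 7435 on day 4. On day 5 Pdgfa read 8.11, 8.47 and 8.50, above every array of the other groups. That was a rise of 0.64 from day 4 (SE 0.155, 1.55-fold, adjusted p = 0.00858) and of 0.90 over control (SE 0.155, 1.86-fold, adjusted p = 8.37e-05).

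Pdgfa then read 7.95, 8.10 and 7.66 for day 7, 7.82, 7.24 and 7.37 for day 9, and 7.90, 7.78 and 7.79 for day 11. Day 7 lay 0.44 above control (SE 0.155, adjusted p = 0.0386), but not after cyclic loess (0.29, adjusted p = 0.211) or without any 1 control array (adjusted p = 0.0802 to 0.0985) or day 7 replicate 1 or 2 (adjusted p = 0.113 and 0.183). Day 9 overlapped control (0.01, SE 0.155), and stood at 0.36 without the 3 arrays set aside (adjusted p = 0.159). Day 11 lay above it in every array without passing (0.36, 95% interval 0.04 to 0.68, adjusted p = 0.105). It passed in 4 of 15 alternatives: with centred arrays (adjusted p = 0.0387), with array weights (adjusted p = 0.00581), without the 3 arrays set aside (adjusted p = 0.0320) and with only the arrays compared (adjusted p = 0.00708). Of all genes, 8337 were called on day 11 with array weights and 7027 with only the arrays compared, against 5143 in the reported fit. Apart from day 5, arrays of all neighbouring groups in the order of Pdgfa overlapped.

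Pdgfc and Pdgfd, the genes of the chains secreted in latent form, read low on every array. Pdgfc ranged from 3.22 to 4.09 over the 24 arrays and its group means ranked at the 23.2 to 28.7 percentile of genes. Pdgfd ranged from 2.20 to 3.17, at the 4.49 to 7.68 percentile. The highest array of either was day 1 replicate 1, the array that stood apart. Neither gene passed in any of 13 comparisons (limma, 0 calls each, and 0 at an unadjusted p under 0.05, with smallest adjusted p of 0.460 and 0.461). All Pdgfd arrays lay above control on day 3 (2.66 to 2.67, against 2.41 to 2.49) and below it on day 11 (2.23 to 2.34). With array weights in limma, Pdgfd passed from day 1 to 3, day 7 to 9 and day 9 to 11 (adjusted p = 0.0241, 0.0223 and 0.0190). Its F test among treated days passed too (adjusted p = 0.0119). Signal this low limits what the arrays could detect, so these values do not show that the genes were silent or steady. On day 11 the 95% intervals were -0.30 to 0.37 for Pdgfc and -0.54 to 0.19 for Pdgfd.

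**Figure D2:**
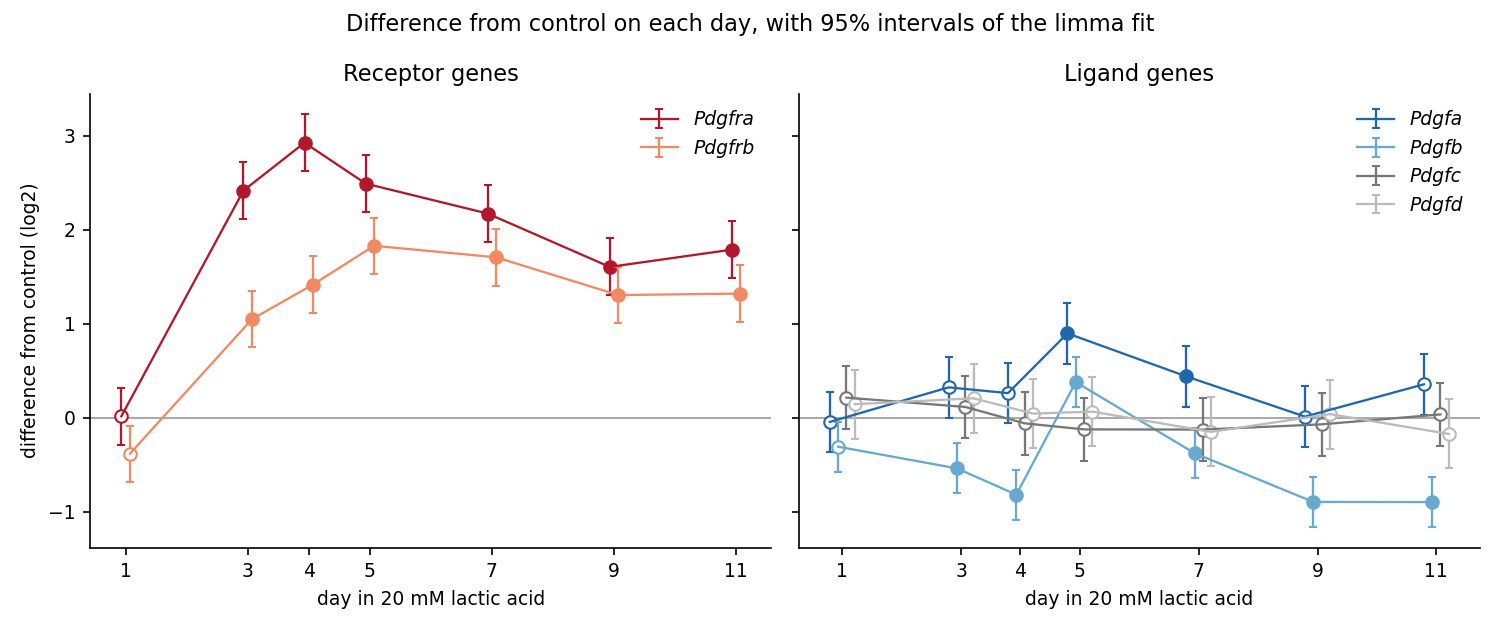
Difference from control (log2) against day in 20 mM lactic acid, receptor genes on the left and ligand genes on the right. Points are limma estimates (n = 3 and 3) with 95% intervals, filled where the adjusted p was below 0.05. The receptors lie between 1.05 and 2.92 above control from day 3 on, while Pdgfb lies below it on every day but day 5.

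Counted over the 6 genes, day 1 had 0 calls (limma, 2 at an unadjusted p under 0.05), where 4.81% of all genes were called, 2.3% higher and 2.52% lower. Without the 3 arrays set aside 2 were called, both lower: Pdgfrb (-0.45, adjusted p = 0.0478) and Pdgfb (-0.43, adjusted p = 0.0210). Day 3 had 2 higher and 1 lower, where 26.3% of all genes were called, 12.4% higher and 13.9% lower. Day 4 had the same counts, against 26.9% (14% higher and 12.9% lower). Day 5 had 4 higher and 0 lower, against 27.5% (17.2% and 10.3%), and day 7 had 3 higher and 1 lower, against 25.4% (16% and 9.44%). Days 9 and 11 each had 2 higher and 1 lower, against 27.2% on day 9 (13.1% and 14%) and 25.8% on day 11 (14% and 11.8%). All 3 calls on each of days 3, 4, 9 and 11 were the receptors and Pdgfb, and these passed in all 15 alternatives. The median difference of the 6 genes was 0.64 on day 5 and 0.20 on day 11, against 0.06 and -0.03 over all genes. Groups without overlap were common among all genes. For day 1, 1 of the 6 genes had all its arrays on 1 side of control, against 20.9% of all genes. For days 3 and 4 it was 5 and 4 genes, against 46.7% and 47.7%. For days 5 and 7 it was 4 genes each, against 44.5% and 50%. For days 9 and 11 it was 3 and 5 genes, against 41.1% and 46%. The 7 comparisons share the control arrays, so their counts are not independent.

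Among treated days alone, without the control, 4 of the 6 genes differed (F test of limma), against 44.8% of all genes. Adjusted p was 6.52e-12 for Pdgfra, 4.02e-10 for Pdgfrb, 1.61e-07 for Pdgfb and 4.87e-04 for Pdgfa, and 0.382 and 0.394 for Pdgfc and Pdgfd. From day 1 to day 3 the receptors were the 2 genes called (27.3% of all genes, 13.6% higher and 13.7% lower), both higher and both without overlap (32.7% of all genes). Pdgfa stood at 0.37 in that step and passed without the 3 arrays set aside (0.48, adjusted p = 0.0109). From day 3 to day 4 none was called (limma, 1.31% of all genes, 0.587% higher and 0.727% lower, 3 of the 6 at an unadjusted p under 0.05), with Pdgfra at 0.51 and Pdgfrb at 0.37, and 3 genes had groups without overlap (31.9% of all genes). Pdgfra passed there without the 3 arrays set aside (adjusted p = 0.00951).

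From day 4 to day 5 the ligand genes Pdgfa and Pdgfb were called, both higher, in a step in which 12.3% of all genes were called, 9.06% higher and 3.29% lower. The receptors did not pass in that step and pointed apart, Pdgfra at -0.43 (adjusted p = 0.0547) and Pdgfrb at 0.41 (adjusted p = 0.0662), each with all 3 arrays of day 5 beyond those of day 4, as 35.7% of all genes had. Without the 3 arrays set aside both passed (adjusted p = 0.00723 and 0.0154). From day 5 to day 7 Pdgfb alone was called, lower (5.2% of all genes called, 2.17% higher and 3.03% lower), and 3 genes lay lower in every array (33.7% of all genes without overlap). Pdgfa stood at -0.46 there and was called without day 5 replicate 1 (-0.58, adjusted p = 0.0410) and without the 3 arrays set aside (-0.46, adjusted p = 0.0153).

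The step from day 7 to day 9 rested on single arrays. Pdgfra (-0.57, SE 0.15, adjusted p = 0.0340) and Pdgfb (-0.52, SE 0.13, adjusted p = 0.0312) were called lower, where 4.76% of all genes were called, 1.03% higher and 3.74% lower. Only Pdgfb had day 9 arrays all below those of day 7 (24.6% of all genes without overlap). Day 9 replicate 1 lay above both other day 9 arrays in all 4 changing genes. Without the 3 arrays set aside, which leaves that replicate as the only day 9 array with its spread taken from the other groups, the differences were -0.18 and -0.29 (adjusted p = 1.00 for both). Neither call held after cyclic loess (-0.45 and -0.33, adjusted p = 0.120 and 0.153). Without day 9 replicate 1 Pdgfrb (-0.56, adjusted p = 0.00740) and Pdgfa (-0.60, adjusted p = 0.00744) passed as well. Leaving out day 7 replicate 1 or 2, or day 9 replicate 2 or 3, ended both calls (adjusted p from 0.0963 to 0.289), and leaving out day 7 replicate 3 ended that of Pdgfb (adjusted p = 0.0720). From day 9 to day 11 none of the 6 was called (limma, 1 at an unadjusted p under 0.05), against 0.0451% of all genes (0.01% higher and 0.0351% lower), with 13.2% of all genes without overlap.

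**Figure D3:**
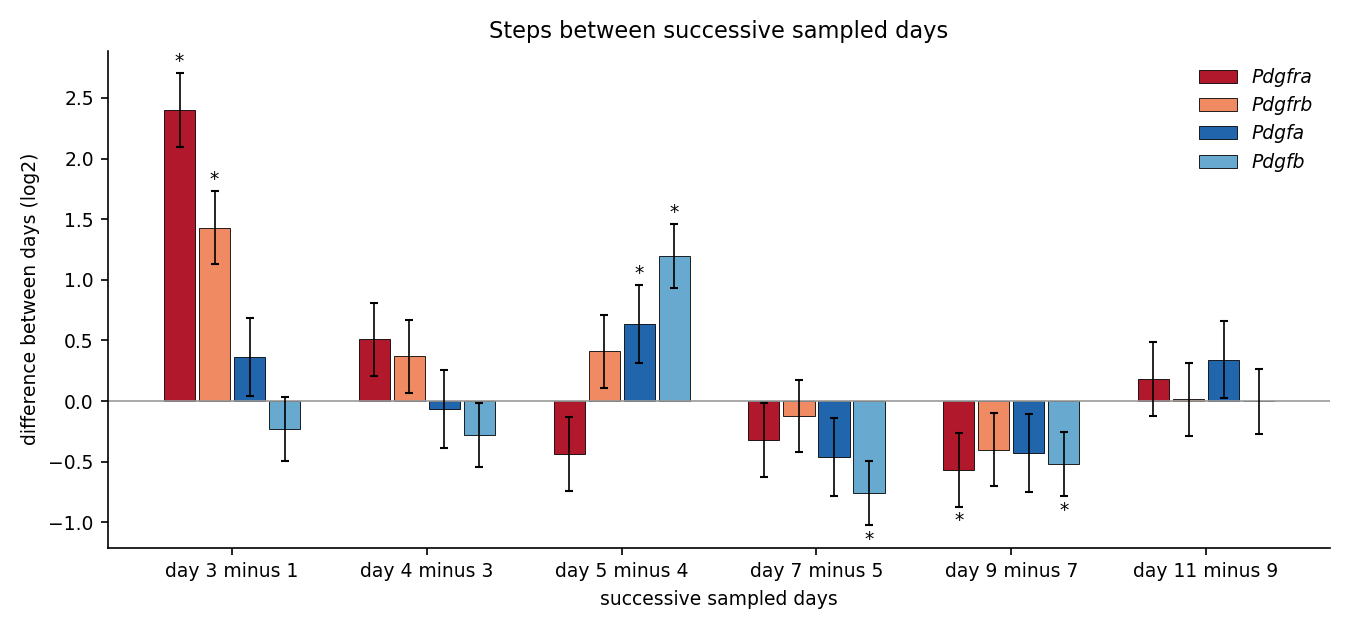
Difference (log2) between successive sampled days for the 4 genes that changed, with the later day minus the earlier one. Bars are limma estimates, lines are 95% intervals (n = 3 and 3) and stars mark an adjusted p below 0.05. The receptors make their step from day 1 to day 3 (2.40 and 1.43), and the ligands theirs from day 4 to day 5 (0.64 and 1.20).

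Over the 8 group means Pdgfra and Pdgfrb correlated at r = 0.90. Pdgfa correlated with Pdgfra at 0.68 and with Pdgfrb at 0.75. Pdgfb correlated at -0.23 and -0.14 with the receptors and at 0.45 with Pdgfa. These describe 8 points that share their arrays and carry no test. Among 3387 genes whose group means spanned at least 1, those most like Pdgfra were Invs (r = 1.00), Rev3l (0.99), which encodes the catalytic subunit of DNA polymerase zeta, and Selenbp1 (0.99). Rev3l read 6.73 in control, 8.85 on day 4 and 7.98 on day 11. Most like Pdgfrb were the lysosomal acid lipase gene Lipa (0.99), Tgfbr3 (0.99), a TGF-beta co-receptor gene, and the metalloproteinase gene Mmp19 (0.99). Tgfbr3 went from 6.42 in control to 8.54 on day 5 and 8.21 on day 11.

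For Pdgfa the closest were Padi2 (0.97), a peptidylarginine deiminase gene, Zfp467 (0.97) and the sulfotransferase gene Chst15 (0.97). Chst15 read 4.09 in control, 6.03 on day 5 and 4.59 on day 11. For Pdgfb they were Ubtd1 (0.96), the actin-severing gelsolin gene Gsn (0.95) and Card10 (0.95). Gsn read 9.48 in control, 8.87 on day 4, 9.98 on day 5 and 8.64 on day 11. Over the 24 single arrays these 12 genes correlated with their partner at 0.84 to 0.98.

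Genes that act on PDGF outside the cell shifted in both directions. Of 12 genes of ligand processing and binding, 1 rose and 2 fell on day 1 and 3 rose and 3 fell on day 11, with 7 higher and 0 lower on day 5. From day 3 on 16.7% to 58.3% of the list was higher and 0% to 25% lower, beside the shares of all genes given above. On day 1 Nrp1, a co-receptor gene, rose by 0.85 (SE 0.22, adjusted p = 0.0244). Its day 1 and control arrays overlapped (SD 0.43 and 0.41), and its control mean of 4.35 lay below the array medians. Plat, whose product tPA activates the C chain, fell by 0.62 (SE 0.13, adjusted p = 0.00631), and Sparc, whose product binds B-chain dimers, fell by 0.48 (SE 0.14, adjusted p = 0.0475). The call of Sparc was lost without the 3 arrays set aside (-0.29, adjusted p = 0.0719). On day 11 Thbs1, a matrix glycoprotein gene, rose by 1.75 (SE 0.23). Lrp1, an endocytic receptor gene whose product associates with the beta receptor, rose by 1.00 (SE 0.15), and Furin, a convertase gene, by 0.42. Sparc (-0.81), the convertase gene Pcsk7 (-0.72) and Plau (-0.63), whose product uPA activates the D chain, fell.

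Relays below the receptors were called mostly higher from day 3 on. Of 26 measured adaptor and relay genes, 1 was called on day 1, the phospholipase gene Plcg1 (0.61, SE 0.12, adjusted p = 0.00290). The numbers higher were 8, 9, 11, 14, 6 and 11 on days 3, 4, 5, 7, 9 and 11, and the numbers lower were 2, 3, 2, 1, 3 and 2. Medians lay between 0.09 and 0.42 on those days, against -0.04 to 0.07 over all genes, and 23.1% to 53.8% of the list was higher and 3.85% to 11.5% lower. The rises that led on day 11 were Sos2 (1.17, SE 0.15), a RAS exchange factor gene, the kinase gene Braf (0.87) and Pik3ca (0.78), a PI3-kinase catalytic subunit gene. The kinase gene Akt1 stood at 9.96 in control (SD 0.12) and 8.88 on day 11 (SD 0.0041), a change of -1.08 (adjusted p = 3.44e-07). Pik3cb, another catalytic subunit gene, changed by -0.43 (adjusted p = 0.0400), a call lost with arrays centred on their medians (-0.37, adjusted p = 0.149).

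Of 18 brakes on receptor signalling, the numbers higher were 7, 7, 9, 7, 5 and 7 on days 3 to 11 (27.8% to 50%), and the numbers lower 2, 3, 1, 2, 2 and 2 (5.56% to 16.7%). Spry2, a Sprouty gene whose product restrains RAS-MAP kinase signalling, was higher on day 1 (0.85, SE 0.11, adjusted p = 5.31e-05). The phosphatase gene Ptprj stood 0.42 lower on that day (adjusted p = 0.0343). The Ptprj call was lost with the mean of its probe sets (adjusted p = 0.0972), with centring (adjusted p = 0.0838) and without the 3 arrays (adjusted p = 0.0631). Spry1, another Sprouty gene, had a mean of 6.22 in control and 6.41 on day 1 (SD 0.22 and 0.28), then 8.30 on day 3 and 9.38 on day 5 (SD 0.14 and 0.40). It was 2.05 above control on day 11 (SE 0.29, 4.15-fold, adjusted p = 5.38e-06). Spred2 (1.41, SE 0.15) and Spry2 (0.85, SE 0.11) rose too, and the phosphatase gene Ptpn1 (-1.07, SE 0.21) and the adaptor gene Sh2b3 (-0.84, SE 0.16) fell.

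**Figure D4:**
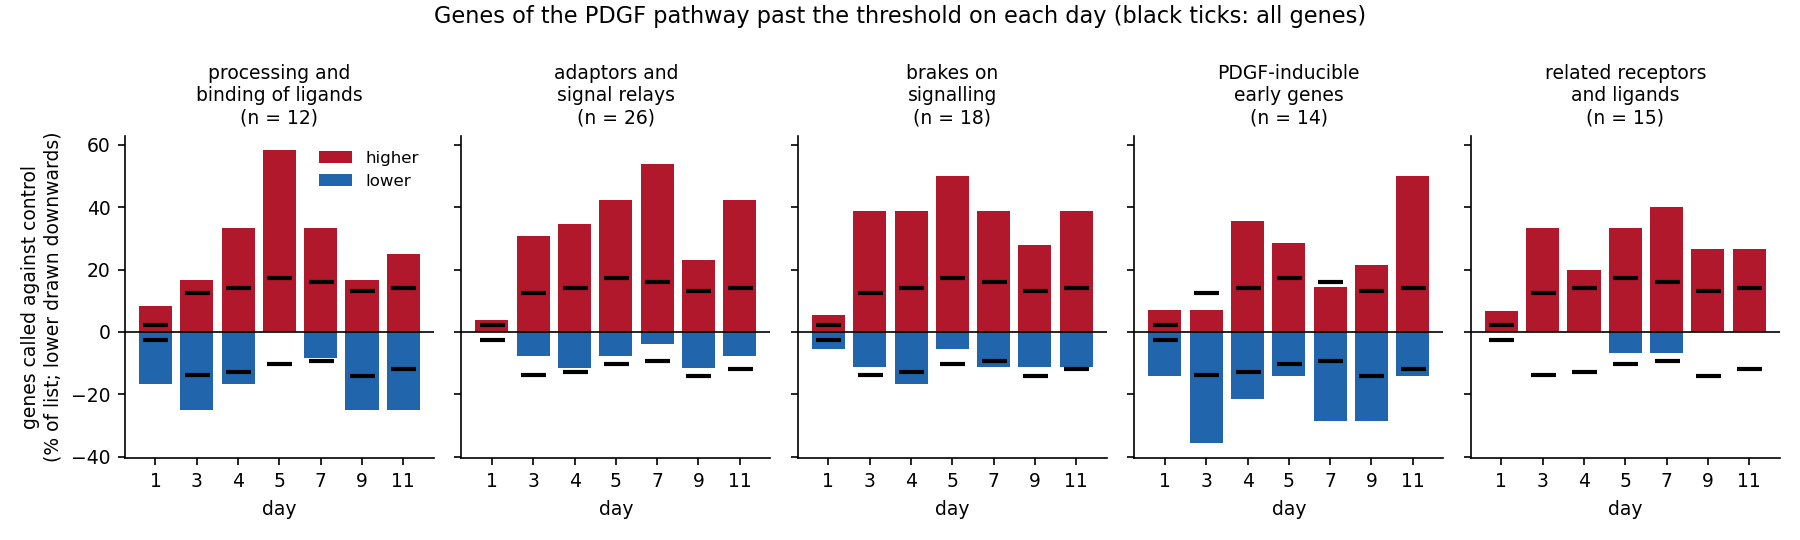
Percentage of measured genes in each of 5 lists that were called higher (red, upwards) or lower (blue, downwards) than control on each day (limma, adjusted p below 0.05). Black ticks give the same percentages over all 19938 genes, 12.4% to 17.2% higher from day 3 on. On the higher side 4 of the 5 lists lie above the ticks on every one of those days, and the early genes lie below them on days 3 and 7.

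Of 14 genes known as early targets of PDGF in fibroblasts, the numbers higher were 1, 1, 5, 4, 2, 3 and 7 on days 1, 3, 4, 5, 7, 9 and 11, and the numbers lower 2, 5, 3, 2, 4, 4 and 2. Several shares lay near those of all genes, as on day 7, with 14.3% of the list higher against 16%. Ccl2 and Cxcl1, chemokine genes first found as PDGF-induced, fell on day 1 (-1.74, SE 0.23, adjusted p = 8.81e-05, and -0.61, SE 0.17, adjusted p = 0.0358), and the Cxcl1 call was lost after cyclic loess (adjusted p = 0.108). The AP-1 gene Fosb rose by 1.12 on day 1 (SE 0.27, adjusted p = 0.0176). On day 11 Fos (1.61, SE 0.25), Ier2 (1.20, SE 0.25) and Fosb (0.83, SE 0.27) rose, while Ccl2 (-1.68) and Fosl1 (-0.48, adjusted p = 0.0314) fell, the latter not with arrays centred on their medians (adjusted p = 0.0843).

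Among 15 genes of related receptors and ligands (KIT, CSF1, FLT3 and VEGF systems), 4 to 6 were higher on each of days 3, 5, 7, 9 and 11, 3 on day 4, and 0 or 1 lower. That was 20% to 40% of the list higher and 0% to 6.67% lower from day 3 on. The shares of all genes were 12.4% to 17.2% higher and 9.44% to 14% lower. The VEGF receptor gene Flt1 was higher on day 1 (0.49, SE 0.12, adjusted p = 0.0174). On day 11 the ligand genes Vegfa (1.60, SE 0.17), Pgf (1.26, SE 0.18) and Csf1 (0.92, SE 0.13) rose. Every day 1 call named in these lists was lost when only the 6 arrays of control and day 1 were fitted (adjusted p from 0.0911 to 0.510). That small fit called only 6 of all 19938 genes, against 960 in the reported fit, so the loss is not particular to these genes.

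**Figure D5:**
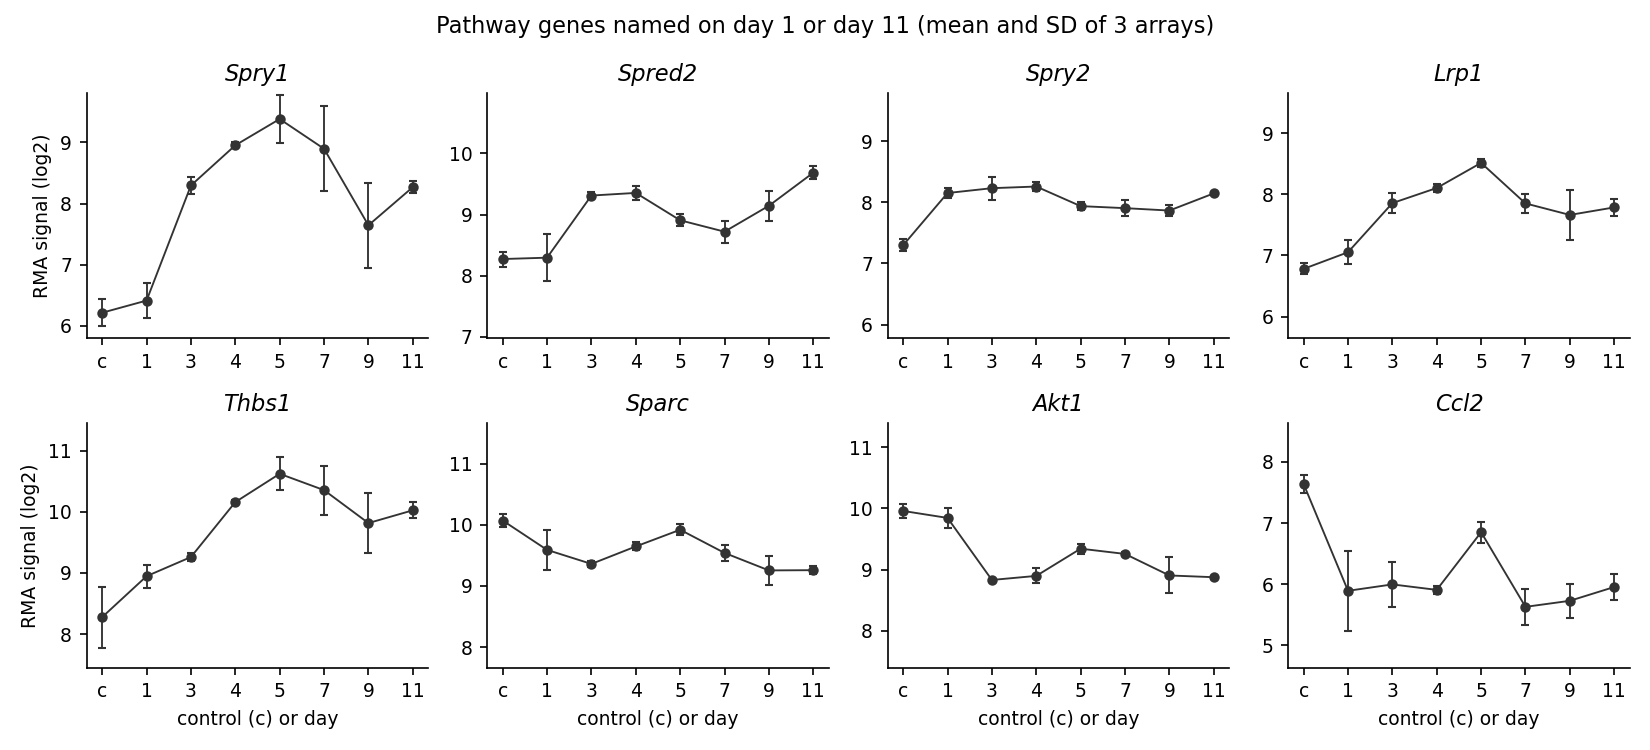
RMA signal (log2) of 8 pathway genes named on day 1 or day 11, by control (c) or day. Points are means and bars SDs of 3 arrays, and all panels cover the same number of log2 units. Spry1 climbs from 6.22 in control to 9.38 on day 5, and Akt1 lies lower from day 3 on.

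Markers of several cell types were compared beside the receptor genes, among them fibroblasts and pericytes, named above as the cells that carry the receptors. The counts of each marker list stand beside 2.3% of all genes called higher and 2.52% lower on day 1. From day 3 on these shares were 12.4% to 17.2% and 9.44% to 14%. Of 6 epithelial markers, the numbers higher were 0, 4, 3, 4, 3, 3 and 3 on days 1, 3, 4, 5, 7, 9 and 11, and the numbers lower 0, 1, 1, 1, 2, 2 and 2. The tight junction gene Cldn4 (2.35), the cadherin gene Cdh1 (0.82), the keratin gene Krt18 (0.58) and the adhesion gene Epcam (0.57) were higher on day 5. The keratin gene Krt19 was lower on every day from day 3 (-0.53 to -0.84), and Krt8 was lower on days 7, 9 and 11 (-0.54, -0.78 and -0.58). Krt8 and Krt18 still ranked at the 98.6 percentile of genes or above on every treated day. The others ranked lower, on day 5 at the 45.0 (Epcam), 51.8 (Krt19), 57.9 (Cdh1) and 78.3 (Cldn4) percentile. The summed linear signal of the list was 4269 to 4779 in control, 5408 to 5878 on day 3 and 3835 to 3957 on day 11.

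Of 8 fibroblast markers, 1 was higher on day 3, Thy1 (0.57, SE 0.17, adjusted p = 0.0145), and 0 were called on the other days. Their summed signal was 182 to 188 in control and 197 to 244 on day 3, above every control array on the day both receptor genes stepped up. It was 162 to 189 on day 4, 164 to 205 on day 5 and 164 to 188 on day 11. On day 7 it was 155.5 to 163.4, below every control array, with both receptor genes still called higher than control. Days 1 and 9 gave 153 to 224 and 167 to 215. Of 9 pericyte and smooth muscle markers, the numbers higher were 0, 1, 0, 2, 1, 0 and 0 on days 1, 3, 4, 5, 7, 9 and 11, and 1 was lower on days 4 and 11. Their summed signal was 293 to 358 in control, 323 to 362 on day 3, 497 to 530 on day 5 and 304 to 352 on day 11. It was 274.6 to 310.5 on day 1, 317.6 to 349.5 on day 4, 381.3 to 410.1 on day 7 and 327.7 to 410.5 on day 9. The day 5 rises were Mcam (0.99, SE 0.14) and Notch3 (0.45, adjusted p = 0.0344), on a day when 17.2% of all genes were called higher. A linear sum weighs the brightest gene most, and Mcam averaged 7.45 in control and 8.44 on day 5. On day 5, 7 of the 9 markers lay below the median gene. The mean log2 signal of the list overlapped, at 4.46 to 4.57 in control and 4.55 to 4.80 on day 5. On day 5 the fibroblast markers ranked from the 0.893 percentile (Lum) to the 53.9 percentile (Col1a1), and the pericyte and smooth muscle markers from the 12.7 (Rgs5) to the 89.1 (Mcam). The part of these markers in the receptor results was not tested. None of 7 endothelial or 4 platelet markers was called on any day (limma), and of 8 leukocyte markers 1 was lower on day 7. The summed endothelial signal was 99.8 to 107 in control, 95.2 to 139 on day 1 and 103 to 104 on day 5. Arrays hold no zero, so none of these markers can be called absent.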

How the data were processed

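RNA of 24 samples of 4T1 cells was hybridised to Affymetrix arrays. The deposited values are log2 signals per probe set. Per the submitters' processing notes, the authors used RMA and version 1.1 of Affymetrix Expression Console. The log2 scale was read from their range (0.96 to 14.71). RMA equalises the arrays' distributions, so a shift of all genes would be removed. No genome build is given in the sources used here. Of 35557 probe sets, 21789 had 1 gene symbol in a 2016 annotation, 1621 several and 12147 none. The probe set with the highest mean stood for each of 19938 genes. The number of arrays limits precision.

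Group means were fitted with limma 3.58.1 (R 4.3.3) over all 24 arrays (16 residual degrees of freedom), with Benjamini-Hochberg adjustment over all genes in each of 13 comparisons and an F test among 7 treated days. The procedure was tested on simulated data. All adjusted p-values come from limma. Intervals are 95%. The members and gene lists were chosen with earlier results of these data known. Some listed genes were not analysed here. Pathway genes were named by rule: up to 3 per list and direction with the largest change among those called on days 1 and 11; others named for their course were chosen after their values were seen. Similar genes were the 3 with the highest correlation over 8 group means among genes whose means spanned at least 1, leaving out predicted genes, sex-specific genes and near-identical families. Same-numbered replicates were checked for pairing, and their deviations correlated at -0.29 to 0.33, so the fit has no block. Alternatives were other scalings, filters, variance models, array weights and omitted arrays; those for steps between days and for listed genes were added after the data were seen. Promoters are RefSeq's, and no genome or protein table was used here.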

Additional observations from a re-analysis of the deposited data

Results flagged for a closer look

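Levels differed between neighbouring treated days in 7 tests (limma, 3 arrays a day), which compare treated days with each other and do not use the control. From day 1 to day 3 Pdgfra rose by 2.40 (adjusted p = 2.94e-11) and Pdgfrb by 1.43 (adjusted p = 6.26e-08). From day 4 to day 5 Pdgfa rose by 0.64 (adjusted p = 0.00858) and Pdgfb by 1.20 (adjusted p = 7.55e-06). From day 5 to day 7 Pdgfb changed by -0.76 (adjusted p = 7.64e-04). From day 7 to day 9 Pdgfra changed by -0.57 (adjusted p = 0.0340) and Pdgfb by -0.52 (adjusted p = 0.0312), and both of these calls were lost without single arrays. Groups of 3 arrays are too small for a test of outlying arrays.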

How the results depend on the processing

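Of the alternatives tried for single genes of the 6, 1243 values stayed on the same side of the threshold (63 of them, none called, turned sign), 45 became calls, 33 lost theirs and 1 reversed: Pdgfb from day 9 to day 11 was 0.20 with array weights. The array weights did not fully converge. Under them calls against control rose among all 19938 genes too, to 8640 on day 1, 11705 on day 9 and 8337 on day 11. In the reported fit these were 960, 5414 and 5143. Counts of the 6 genes called against control stayed within 1.5 times, except on day 1, with 2 under array weights and 2 when the 3 arrays set aside were left out, and on day 7, with 2 at an adjusted p below 0.01 and 2 to 4 when 1 array was left out. With array weights 5 genes were called from day 1 to day 3, 2 from day 3 to day 4, 4 from day 4 to day 5, 2 from day 5 to day 7, 5 from day 7 to day 9 and 4 from day 9 to day 11. Without the 3 arrays set aside these were 1 from day 3 to day 4, 4 from day 4 to day 5, 2 from day 5 to day 7 and 0 from day 7 to day 9. From day 3 to day 4, 1 was called with arrays centred on their medians and 1 with only the arrays compared. From day 4 to day 5, 4 were called without the 40% dimmest genes. From day 5 to day 7, 1 to 2 were called when 1 array was left out. From day 7 to day 9, 0 were called after cyclic loess, 1 with centred arrays, 0 with only the arrays compared, 0 at an adjusted p below 0.01 and 0 to 4 when 1 array was left out. The cause was not tested. Replicate numbers did not pair the samples. With the replicate number as a block no count of the 6 genes moved by over 1.5 times, with 4 called on day 5, and Pdgfra from day 4 to day 5 (-0.43) passed (adjusted p = 0.0462). Among the pathway lists, leaving out the 3 arrays set aside moved the early genes higher on day 7 from 2 to 5 and the processing genes higher on day 11 from 3 to 5; array weights moved the relays lower on day 11 from 2 to 7 and the brakes higher from 7 to 11. Signal near background limits Pdgfc and Pdgfd.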
